A study of Mus musculus with 16 samples.

Results

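Integrins are the receptors that fasten epithelial cells to the matrix beneath them, and laminin-332 is a main protein of that matrix under stratified and glandular epithelia. The genes described here are 9 members named by symbol: the α subunits Itga2, Itga3, Itga6 and Itgav, the β subunits Itgb1, Itgb4, Itgb5 and Itgb6, and Lamb3, which encodes the β3 chain of laminin-332. They were taken by name from a table of 54532 genes, and all 9 were found and passed the filter on low values in both comparisons below. They were measured in cells of KPC1199, a mouse pancreatic cancer line, that were sorted from tumours grown in the pancreas after orthotopic implantation. The study labelled 16 samples, and 8 libraries of sorted cells are used here. The 4 groups of sorted cells, with 2 libraries each, were KPC1199 cells WT for Ly6d, cells overexpressing Ly6d, cells sorted for high Ly6d and cells sorted for low Ly6d. Ly6d encodes a GPI-anchored membrane protein. The sources used here do not give how overexpression was brought about, how the cells were gated, the age and strain of the hosts, or whether a line was a clone or a library a pool of animals. Nothing in the labels says that the 2 libraries of a group came from separate animals, so p-values measure only the spread between these libraries.

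An integrin is a dimer of an α and a β chain, and the pair decides the ligand. Itga3 and Itga6 with Itgb1, and Itga6 with Itgb4, bind laminins, and the Itga6 and Itgb4 dimer anchors hemidesmosomes to keratin filaments. Itga2 with Itgb1 binds collagen. Itgav pairs with Itgb1, Itgb5 or Itgb6, among others, and these dimers bind fibronectin, vitronectin and the latent form of TGF-β, which the Itgb6 dimer activates. In laminin-332 the product of Lamb3 is joined with that of Lama3, its α chain, so Lama3 is described beside Lamb3. Many of these genes are also transcribed in fibroblasts, endothelial cells and leukocytes.

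The promoters of 3 members are shown because the results turn on them: Itgb6, the member called higher in Ly6d-high cells, Itgb5, the main partner of Itgav beside Itgb1, and Lamb3, the member with the lowest estimate in Ly6d-high cells. Each is the stretch before the RefSeq start on GRCm38.p6, printed 5′ to 3′ on the gene's strand and ended before any exon base of GENCODE M21. That start lies inside the gene's span in the deposited tables for Itgb6, Itga3 and Lamb3. For Lamb3 it lies far downstream of the start in those tables. Capitals mark CG dinucleotides. Itgb6 is on the minus strand at chr2:60722644-60722853, Itgb5 on the plus strand at chr16:33829415-33829664 and Lamb3 on the plus strand at chr1:193301744-193301992.
Itgb6: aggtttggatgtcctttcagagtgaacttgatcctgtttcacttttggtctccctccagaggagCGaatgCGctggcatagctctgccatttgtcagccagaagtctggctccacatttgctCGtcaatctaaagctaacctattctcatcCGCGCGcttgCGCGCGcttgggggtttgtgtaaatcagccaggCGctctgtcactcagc
Itgb5: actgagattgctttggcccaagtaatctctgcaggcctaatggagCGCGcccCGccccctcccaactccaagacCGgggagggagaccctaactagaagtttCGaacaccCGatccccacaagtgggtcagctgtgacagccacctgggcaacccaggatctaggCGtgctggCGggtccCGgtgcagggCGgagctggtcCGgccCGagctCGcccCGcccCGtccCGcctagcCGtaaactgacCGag
Lamb3: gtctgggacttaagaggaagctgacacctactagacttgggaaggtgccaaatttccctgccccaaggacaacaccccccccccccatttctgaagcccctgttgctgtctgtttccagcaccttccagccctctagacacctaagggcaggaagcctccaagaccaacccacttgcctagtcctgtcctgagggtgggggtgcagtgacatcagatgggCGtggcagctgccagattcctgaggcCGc

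Of the 9 members, 7 had a promoter in that table, and Itga6 and Itgb4 did not. In the 250 bases before the RefSeq start, the ratio of observed to expected CG dinucleotides was 0.094 for Lamb3, with 2 such dinucleotides. For the other 6 members it ran from 0.562 for Itga2 to 0.886 for Itga3, and the median over 32851 promoters was 0.374. Lamb3 was thus CG-poor, with 14.1% of all promoters lower, and Itgb6 (0.655) was not. The letters TGANTCA, where N is any base, were searched on both strands. They take in the AP-1 motif, where N is C or G, and were in none of the 7 windows and in 6.75% of all windows. TATAAA, the TATA box, searched likewise, was in none of the 7 and in 12.4% of all. GGGCGG, a GC box, was found 3 times each in the windows of Itga3 and Itgb5 and 1 time in that of Itgb1, so in 3 of 7 windows, against 32.7% of all windows.

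The genes lie apart from each other. Itga6 (71745616 to 71858416), Itgav (83724397 to 83806916) and Itgb6 (60598292 to 60722643) are on chromosome 2, Itga3 (95044474 to 95076801) and Itgb4 (115974709 to 116008412) on chromosome 11, and Lamb3 (193207699 to 193343878) on chromosome 1. Itgb1 is on chromosome 8, Itga2 on chromosome 13 and Itgb5 on chromosome 16. These positions, as the deposited tables give them, are those of GRCm38. All are protein-coding, with gene models of 3553 to 10744 bases. A pair of non-coding genes share exon bases with a member on the opposite strand, Gm13684 with Itgav and B230344G16Rik with Itgb4. They averaged 8.25 and 20.3 counts per WT and overexpression library, against 4441 for Itgav and 12485 for Itgb4. Hsd11b1 lies within the span of Lamb3 on the opposite strand but shares no exon base with it. The sources used here do not say if strand was used in counting, so reads of such pairs may not be told apart.

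Library totals were 15449241 to 18290325 counts in WT and overexpression and 15063975 to 20509539 recovered reads in Ly6d-high and Ly6d-low libraries. Ly6d was at 1163 ± 137 CPM (counts scaled to library size) in WT and 3401 ± 31.0 CPM in overexpression (SD, n = 2 each), and at 0.954 ± 0.852 TPM (scaled to gene length and library size) in Ly6d-low and 600.3 ± 137 TPM in Ly6d-high, the difference the sort selects for. Epithelial markers were high in every library: Epcam was at 1955 to 2434 TPM in the Ly6d-low and Ly6d-high samples, and at 306 to 318 RPKM in WT and overexpression. The pan-leukocyte gene Ptprc was at 0.0429 to 0.172 TPM and at 0.0848 to 0.582 RPKM. RPKM here are CPM per kilobase of gene model. Pancreatic acinar markers, all 7 detected in every library, summed to 14164 to 14295 RPKM in WT and 1154 to 1264 RPKM in overexpression (7 of 7 lower), and to 4339 to 4343 TPM in Ly6d-low and 10321 to 11772 TPM in Ly6d-high cells (5 of 7 higher). Their part in the results below was not tested. The overexpression columns carry a name found in the titles of the overexpression tumours, and that alone placed them.

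Per gene length, the most abundant member in WT cells was Itgb1, the β chain shared by most of these receptors, at 189 ± 1.95 RPKM. Itga3 at 123 ± 3.46 RPKM and Itgb5 at 119.6 ± 9.41 RPKM came next and overlapped. They were followed by Itgb4 at 94.6 ± 4.17, Itga6 at 66.8 ± 0.258, Lamb3 at 27.8 ± 2.40, Itgav at 22.5 ± 0.662 and Itga2 at 17.0 ± 0.105 RPKM (SD, n = 2 each). Itgb6 was lowest by far, at 0.736 ± 0.0361 RPKM. In Ly6d-low cells the order was Itgb1 at 301 ± 6.09, Itgb5 at 233 ± 15.8, Itga3 at 101 ± 7.08, Itga6 at 73.0 ± 3.72 and Itgb4 at 43.9 ± 1.35 TPM. Below these came Lamb3 at 31.7 ± 0.672 and Itga2 at 31.2 ± 2.52 TPM, which overlapped, Itgav at 20.7 ± 0.542 TPM and again Itgb6 at 3.08 ± 0.218 TPM (SD, n = 2 each). In Ly6d-high cells the values of Itgb1 and Itgb5 overlapped, as did those of Itga6 and Itgb4, and those of Itga2, Itgav and Lamb3. Within each Ly6d-high library the order was the same: Itgb1 above Itgb5, Itga6 above Itgb4, and Itgav above Itga2 above Lamb3. The tables were normalized separately and differ in unit, so levels are compared only within each.

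**Figure D1:**
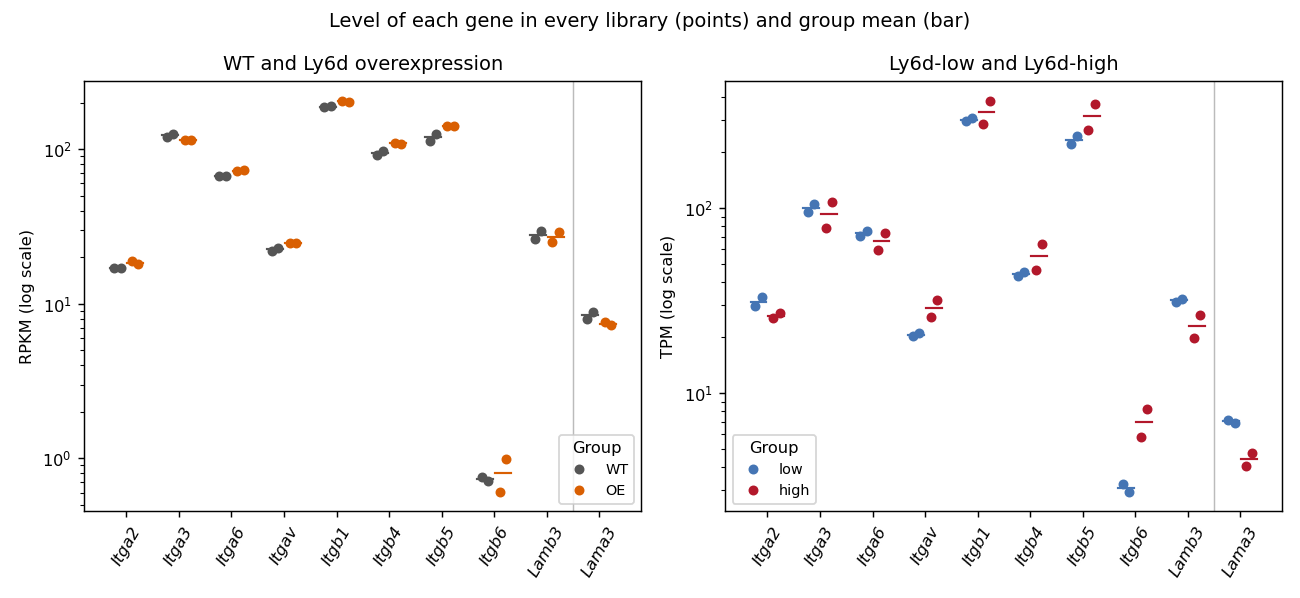
Level of the 9 members and of Lama3 (right of the grey line) in every library, on log axes. The left panel gives RPKM in WT and overexpression (OE) libraries, the right panel TPM in Ly6d-low and Ly6d-high libraries, with bars at group means. Itgb6 is the lowest member in both panels, and its Ly6d-high points (5.82 and 8.16 TPM) lie above its Ly6d-low points (3.24 and 2.93 TPM).

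The first comparison asked how Ly6d overexpression changed the receptors and the laminin chain. None of the 9 members passed (edgeR's quasi-likelihood test, adjusted p below 0.05 over 15771 genes). Of all genes tested 4.16% passed, 2.32% higher and 1.84% lower. At an unadjusted p under 0.05 there were 2, Itgb5 and Itgb4, and DESeq2 called 0 of 9. Log2 fold changes ran from -0.12 to 0.22 with a median of 0.10, against -0.00 over all genes. Leaving out Itgb6, which had few counts, the 95% confidence intervals of the members lay between 0.830-fold and 1.30-fold, so larger changes lay outside them.

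Itgb5, the vitronectin receptor chain, was at 401 and 448 CPM in WT and at 503 and 499.8 CPM in overexpression. The groups did not overlap, and the log2 fold change was 0.22 ± 0.07 (SE; edgeR adjusted p = 0.132). Itgb4, the hemidesmosomal chain, was at 643 and 684 CPM in WT and at 766 and 762 CPM in overexpression, also without overlap (0.18 ± 0.07, edgeR adjusted p = 0.183). Of the 9 members, 7 did not overlap between the groups, 6 higher and 1 lower, as did 48% of all genes tested, 26.3% higher and 21.7% lower. Leaving out WT replicate 2, the library nearer to overexpression for both genes, moved Itgb5 to 0.31 (edgeR adjusted p = 0.00194) and Itgb4 to 0.24 (edgeR adjusted p = 0.0102). With no filter on low counts Itgb5 also passed (edgeR adjusted p = 0.0485).

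The other α chains and Itgb1 did not pass. Itga3 was at 689 and 717 CPM in WT and at 653 and 654 CPM in overexpression (log2 fold change -0.12 ± 0.07 SE). Itga6 was at 605 and 601 CPM in WT and at 652 and 661 CPM in overexpression (0.10 ± 0.06). Itgb1 went from 764 and 775 CPM to 842 and 824 CPM (0.10 ± 0.06), Itgav from 236 and 246 to 266 and 267 CPM (0.13 ± 0.06) and the collagen receptor chain Itga2 from 122 and 121 to 135 and 128 CPM (0.10 ± 0.07). Their edgeR adjusted p-values ran from 0.352 for Itgav to 0.534 for Itga2.

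Lamb3 and Itgb6 overlapped between the groups. Lamb3 was at 172 and 195 CPM in WT and at 165 and 194 CPM in overexpression, a log2 fold change of -0.05 with a 95% confidence interval from -0.26 to 0.16. Itgb6 rested on 98 and 78 counts in WT and on 79 and 127 counts in overexpression. Its interval, from -0.61 to 0.82, leaves a 1.76-fold rise and a fall to 0.654-fold within it. Lama3 went from 85.7 and 94.8 to 81.6 and 78.3 CPM (-0.19 ± 0.09 SE, edgeR adjusted p = 0.297).

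**Figure D2:**
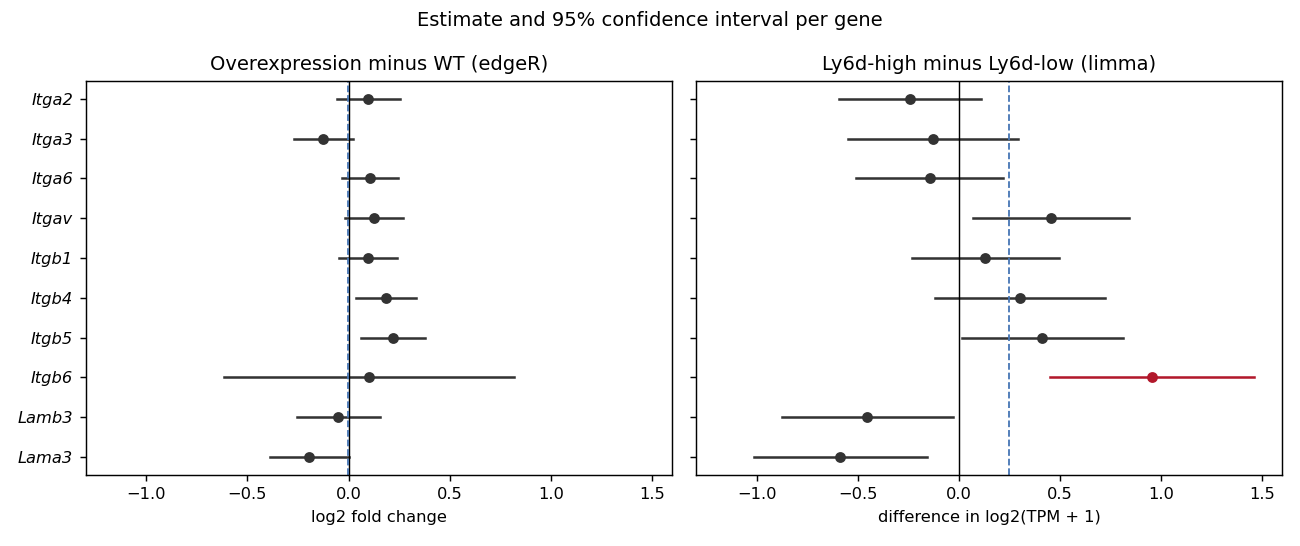
Log2 estimate (point) and 95% confidence interval (line) for each member and for Lama3. The left panel is overexpression minus WT, the right panel Ly6d-high minus Ly6d-low, red marks an adjusted p under 0.05, and the dashed line is the median over all genes tested (-0.00 and 0.25). Only Itgb6 in the right panel is red.

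The second comparison asked whether cells with high Ly6d differ from cells with low Ly6d in the same genes. Itgb6 rose 2.27-fold in Ly6d-high cells. Lamb3 and Lama3 had lower levels in both Ly6d-high libraries without passing, though some alternatives called them. Of the 9 members, 1 was called, Itgb6, and it was higher (limma-trend on log2(TPM + 1), adjusted over 14625 genes). Of all genes tested, 9.81% were called, 8.64% higher and 1.17% lower, so 1 of 9 is near the background. Most genes lay above 0 in this test, with a median of 0.25. With TMM scaling factors, which align the bulk of genes between libraries, the median was 0.01. Differences are therefore given also relative to the median. The members split around it: 4 lay above the median and 5 below.

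Itgb6 was at 3.24 and 2.93 TPM in the Ly6d-low libraries, from 139 and 159 recovered reads, and at 5.82 and 8.16 TPM in the Ly6d-high libraries, from 332 and 386 reads. Both Ly6d-high libraries lay above both Ly6d-low libraries. The means differed 2.27-fold. As log2(TPM + 1) the difference was 0.96 ± 0.21 (SE, limma adjusted p = 0.0365), or 0.71 relative to the median. Its direction was the same under all 11 alternatives, from 0.73 to 1.17, and 7 of them called it. edgeR on recovered reads gave 0.88 (adjusted p = 0.0162) and DESeq2 0.86 (adjusted p = 0.0156). The call was lost with TMM factors on TPM (limma adjusted p = 0.0621), with no filter on low TPM (0.147), without Ly6d-low replicate 1 (0.123) and without Ly6d-low replicate 2 (0.188).

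Of the chains of fibronectin and vitronectin receptors, Itgav and Itgb5 also lay above 0 without passing. Itgb3, a partner of Itgav but not a member, overlapped, at 7.71 and 9.47 TPM in Ly6d-low and 7.65 and 7.77 TPM in Ly6d-high cells. Itga5, a fibronectin receptor chain and also not a member, was at 17.3 and 17.2 TPM in Ly6d-low and 21.3 and 30.3 TPM in Ly6d-high cells. It did not pass either (0.54 ± 0.20 SE, limma adjusted p = 0.124, 0.29 relative to the median). Itgav was at 20.3 and 21.1 TPM in Ly6d-low and at 25.9 and 31.9 TPM in Ly6d-high cells (0.46 ± 0.16 SE, limma adjusted p = 0.120). Itgb5 was at 222 and 244 TPM in Ly6d-low and at 264 and 366 TPM in Ly6d-high cells (0.41 ± 0.17, limma adjusted p = 0.153). Neither gene overlapped between the groups. Of the 9 members, 4 were higher and 2 lower without overlap, as were 64.8% of all genes tested, 54.4% higher and 10.4% lower. Relative to the median the differences were 0.21 and 0.17, and with edgeR on recovered reads 0.18 and 0.12. Without Ly6d-high replicate 1 both passed, Itgav at 0.60 (limma adjusted p = 0.00545) and Itgb5 at 0.65 (0.00243), and without Ly6d-high replicate 2 neither did, at 0.31 and 0.18.

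Lamb3 was at 31.2 and 32.2 TPM in Ly6d-low and at 19.8 and 26.4 TPM in Ly6d-high cells, lower in both Ly6d-high libraries than in either Ly6d-low library. The difference was -0.45 ± 0.18 (SE; limma adjusted p = 0.143), or -0.70 relative to the median. Under the scalings that align the bulk of genes it passed: -0.72 with TMM factors on TPM (limma adjusted p = 0.0335), -0.76 with edgeR on recovered reads (adjusted p = 0.00607) and -0.78 with DESeq2 (adjusted p = 6.47e-05). Without Ly6d-high replicate 2 it was -0.65, and without Ly6d-high replicate 1 it was -0.25. Its direction was the same under all 11 alternatives, and 5 of them called it. Leaving out Ly6d-low replicate 1 or 2, it did not pass.

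Lama3, too, was lower in both Ly6d-high libraries. It was at 7.19 and 6.92 TPM in Ly6d-low and at 4.04 and 4.72 TPM in Ly6d-high cells (-0.59 ± 0.18 SE, limma adjusted p = 0.0875). With TMM factors on TPM it passed at -0.82 (limma adjusted p = 0.0279), and edgeR on recovered reads gave -0.99 (adjusted p = 0.00282). It also passed without Ly6d-high replicate 1 (-0.49, limma adjusted p = 0.0310) and without Ly6d-high replicate 2 (-0.68, 0.0377). A list of chains of other laminins had 5 genes tested (Lama4, Lama5, Lamb1, Lamb2 and Lamc1). All 5 lay above 0, as did 76.7% of all genes tested. Their median was 0.51, or 0.26 relative to all genes. limma called 0 of them (2 at an unadjusted p under 0.05), as did edgeR and DESeq2 on recovered reads. Without Ly6d-high replicate 1 the median of these 5 was 0.82, against 0.336 over all genes. Without Ly6d-high replicate 2 it was 0.21, against 0.141. The epithelial marker list moved beside Lamb3 and Lama3. The summed level of its 9 genes was 55738 and 56867 TPM in Ly6d-low and 40069 and 39193 TPM in Ly6d-high cells, with 4 members lower, 3 higher and none at 0 in any library, and its part in the result was not tested.

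The α chains that bind laminin and collagen lay below the median. Itga6 was at 70.3 and 75.6 TPM in Ly6d-low and at 59.1 and 73.5 TPM in Ly6d-high cells, which overlapped (-0.14 ± 0.15 SE, -0.39 relative to the median). Itga3 overlapped too, at 95.6 and 106 TPM against 78.1 and 108 TPM (-0.13 ± 0.18, -0.37 relative to the median). Itga2 was at 29.4 and 33.0 TPM in Ly6d-low and at 25.5 and 26.9 TPM in Ly6d-high cells, without overlap (-0.24 ± 0.15, -0.49 relative to the median). edgeR on recovered reads called Itga2 (-0.54, adjusted p = 0.0197) and Itga6 (-0.44, adjusted p = 0.0264) lower, and DESeq2 also called Itga3 (-0.43, adjusted p = 0.0415). Itga3 and Itga6 turned positive without Ly6d-high replicate 1, at 0.10 and 0.01.

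The shared β chain and the hemidesmosomal chain did not pass in any of the 4 tests drawn in the plot of estimates by test. Itgb1 was at 297 and 305 TPM in Ly6d-low and at 284 and 381 TPM in Ly6d-high cells. Its difference of 0.13 ± 0.15 turned to -0.15 with TMM factors on TPM, -0.16 with edgeR and -0.17 with DESeq2. Itgb4 was at 43.0 and 44.9 TPM in Ly6d-low and at 46.5 and 63.6 TPM in Ly6d-high cells (0.30 ± 0.18 SE, limma adjusted p = 0.283), and at 0.02 with edgeR on recovered reads. Without Ly6d-high replicate 1 both passed, Itgb1 at 0.34 (limma adjusted p = 0.00808) and Itgb4 at 0.53 (0.00560).

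**Figure D3:**
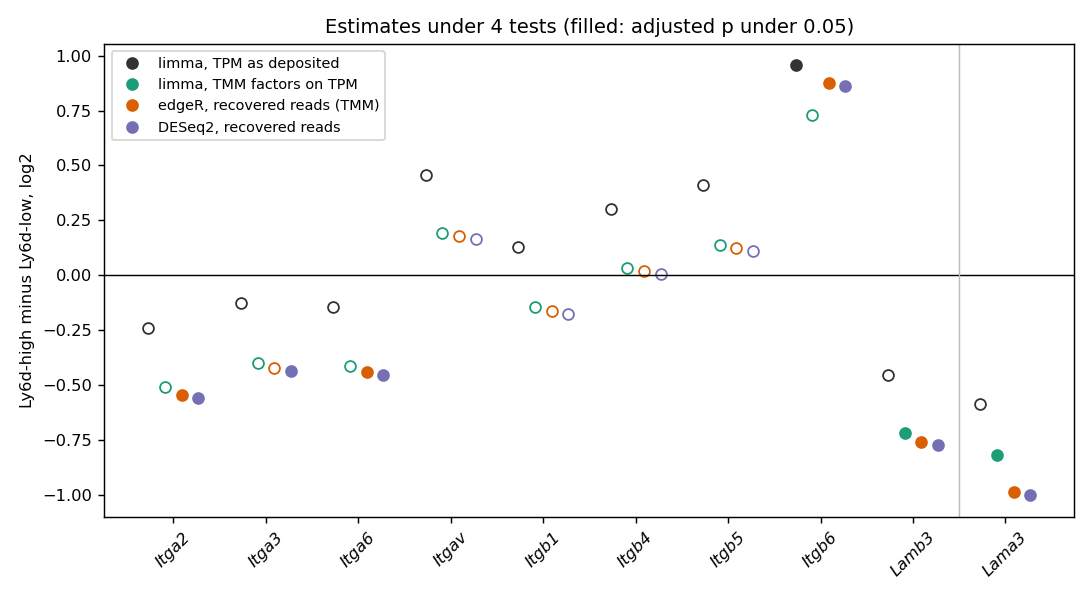
Ly6d-high minus Ly6d-low estimate (log2) of each member and of Lama3 under 4 tests, with filled points at an adjusted p under 0.05. The estimates from TPM as deposited lie above those of the other tests for every gene drawn. Itgb6 stays above 0, and Lamb3 and Lama3 below 0, in all 4 tests.

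The Ly6d-high libraries differed from each other more than the Ly6d-low libraries did. All 9 members were higher in replicate 2 than in replicate 1, by a median of 0.42 on the log2(TPM + 1) scale, against 0.19 over all genes tested, of which 71.2% were higher in replicate 2. Genes at least as long as the shortest member, 3553 bases, differed by a median of 0.26 and genes under 1000 bases by -0.18. The Ly6d-low replicates differed by a median of 0.06 over the members and 0.04 over all genes. Between Ly6d-high and Ly6d-low cells the median was 0.28 over the long genes and 0.06 over the short ones. Without Ly6d-high replicate 1, 49.2% of all genes tested passed, as did 5 of 9 members. The part of gene length in the members' differences was not tested.

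Ratios between subunits within a library do not depend on how libraries are scaled. Subunits still differ in gene length, whose part in the ratios was not tested. Itgav (10744 bases) is longer than Itga3 (5710). Itgb6 (7111), Itgb4 (7015), Itgb8 (11060) and Itgb3 (5901) are longer than Itgb1 (4081). Itgb5 (3553) is shorter than Itgb1, and Lamb3 (6612) is shorter than Lama3 (10745). Of the β chains that pair with Itgav (Itgb1, Itgb3, Itgb5, Itgb6 and Itgb8), Itgb6 held 0.610% and 0.520% in Ly6d-low and 1.03% and 1.07% in Ly6d-high cells, per gene length. Itgb5 held 41.9% and 43.5% in Ly6d-low and 46.8% and 47.8% in Ly6d-high cells, and Itgb1 held 55.9% and 54.2% in Ly6d-low and 50.5% and 49.8% in Ly6d-high cells. Itgb8 held 0.121% and 0.103% in Ly6d-low and 0.268% and 0.270% in Ly6d-high cells. The share of Itgb3 was 1.45% and 1.68% in Ly6d-low and 1.36% and 1.02% in Ly6d-high cells. So the pool held more Itgb6, Itgb8 and Itgb5 and less Itgb1 and Itgb3 in both Ly6d-high libraries. In WT and overexpression the Itgb6 share was 0.240% and 0.213% against 0.165% and 0.274%, which overlapped.

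Of the Itgb1 and Itgb4 mRNA available to Itga6, Itgb4 held 12.7% and 12.8% in Ly6d-low and 14.0% and 14.3% in Ly6d-high cells. It held 32.9% and 33.9% in WT and 34.6% and 35.0% in overexpression. The level of Itgav per Itga3 was 0.212 and 0.200 in Ly6d-low and 0.332 and 0.295 in Ly6d-high cells, and 0.182 and 0.183 in WT against 0.217 and 0.217 in overexpression. Both ratios were higher in each Ly6d-high and each overexpression library than in their comparison groups. With 2 libraries against 2, an exact permutation test cannot give a p under 0.33, so these shares carry no test.

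Lamb3 was more abundant than Lama3 per gene length in all 8 libraries. The level of Lamb3 per Lama3 was 4.34 and 4.65 in Ly6d-low and 4.90 and 5.61 in Ly6d-high cells, higher in both Ly6d-high libraries. It was 3.27 and 3.34 in WT and 3.29 and 4.03 in overexpression, which overlapped.

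**Figure D4:**
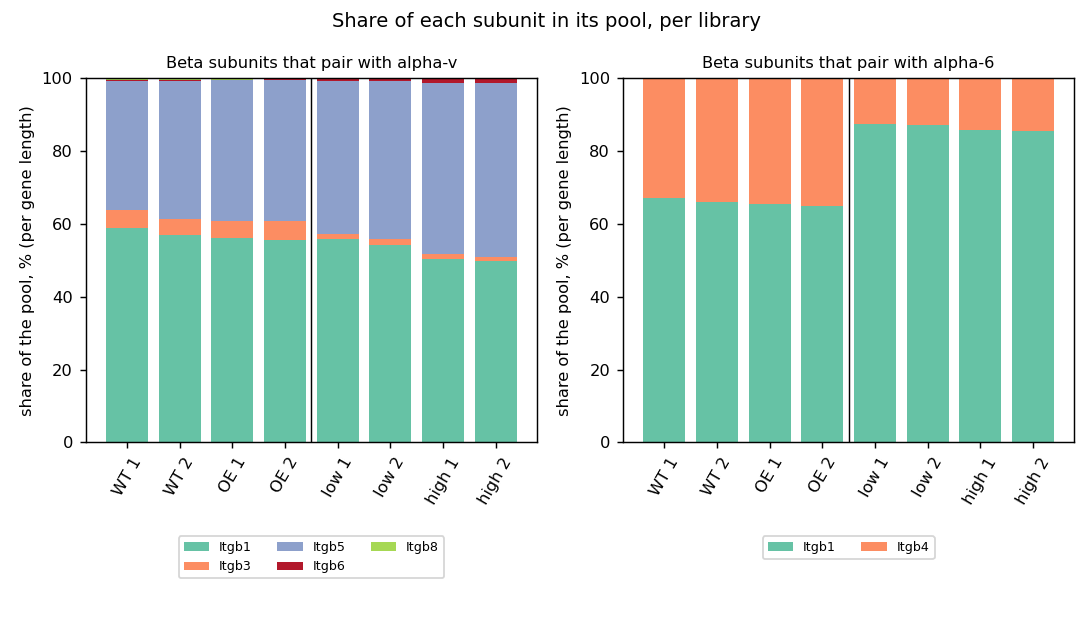
Share in percent of each subunit's level per gene length in its pool, for every library: the β chains that pair with Itgav and the β chains that pair with Itga6. The black line separates the tables, which were normalized separately. The Itgb4 share is 32.9% to 35.0% left of the line and 12.7% to 14.3% right of it.

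Other genes of cell and matrix adhesion were read from lists. With overexpression, 4 of 17 other integrin genes were higher: Itgax, Itgal, Itgb2 and Itga4, which encode chains of leukocyte integrins. Itgb2 went from 3.67 ± 0.979 to 11.5 ± 0.402 CPM (log2 fold change 1.62 ± 0.27 SE, edgeR adjusted p = 0.00572). The list's median was 0.21, against -0.00 over all genes. Leukocyte markers moved the same way: all 4 of the list, which also holds Itgb2, were higher, and their summed level was 2.36 to 3.09 RPKM in WT and 11.2 to 13.4 RPKM in overexpression, with none at 0. The macrophage list (4 of 5 higher) went from 28.0 to 28.6 RPKM in WT to 107 to 113 RPKM, and the neutrophil list (4 of 5 higher) from 4.09 to 5.02 RPKM to 141 to 146 RPKM. Their part in the rise of the leukocyte integrins was not tested, and fewer cells of a type and less RNA per cell cannot be told apart in such libraries.

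Of 22 matrix ligands, edgeR called 2 higher with overexpression and none lower (median 0.05). DESeq2 called 4 higher and 2 lower, Spp1 and Agrn, and with no filter on low counts edgeR called 3 higher and 4 lower. Fn1, the fibronectin gene and a ligand of Itgav dimers, went from 9886 ± 366 to 12525 ± 306 CPM (0.32 ± 0.05 SE, edgeR adjusted p = 0.00572), a call lost without overexpression replicate 1 (edgeR adjusted p = 0.0576). Col1a2, a chain of collagen I, went from 309 ± 22.2 to 406 ± 0.338 CPM (0.38 ± 0.07, edgeR adjusted p = 0.0129). Tgfbi, a secreted TGF-β-induced protein that binds integrins, was the only call among 9 genes of TGF-β activation and response, at 111 ± 1.79 and 156 ± 1.28 CPM (0.48 ± 0.07, edgeR adjusted p = 0.00263). The fibroblast markers, which include Col1a2 and of which 2 of 7 were higher, summed to 595 to 658 RPKM in WT and 707 to 709 RPKM in overexpression with none at 0, and their part was not tested.

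Lama4, a laminin chain of vessels, was lower with overexpression, at 57.8 ± 0.531 and 42.0 ± 3.51 CPM (-0.48 ± 0.11 SE, edgeR adjusted p = 0.0279), as 1 of 8 other laminin chains (median 0.09). That call was lost without WT replicate 1 (edgeR adjusted p = 0.0505) or WT replicate 2 (0.107). Tns1, a tensin that links integrin tails to actin, was lower too, at 67.5 ± 8.75 and 38.7 ± 8.57 CPM (-0.82 ± 0.15, edgeR adjusted p = 0.00975), as 1 of 26 integrin adaptors (median -0.03). Endothelial markers, of which 4 of 5 were lower, summed to 74.3 to 76.7 RPKM in WT and 38.6 to 41.7 RPKM in overexpression with none at 0, and their part was not tested. edgeR called 0 of 4 hemidesmosome genes (median 0.03; 1 at an unadjusted p under 0.05) and DESeq2 0. edgeR called 0 of 13 tetraspanins and other matrix receptors (median 0.07; 2 at an unadjusted p under 0.05), and DESeq2 called 2, Bsg and Cd47, higher.

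In Ly6d-high cells, 5 of 21 matrix ligands were higher (median 0.50, against 0.25 over all genes). Tgfb2, whose product is a TGF-β ligand, went from 3.91 ± 0.0924 to 9.21 ± 0.416 TPM (1.06 ± 0.17 SE, limma adjusted p = 0.0111). Vtn, the vitronectin gene, went from 0.874 ± 0.314 to 4.92 ± 1.74 TPM (1.64 ± 0.27, limma adjusted p = 0.0119), and Tgfb3 from 24.7 ± 0.726 to 43.2 ± 8.75 TPM. Cyr61, a secreted integrin ligand, went from 1121 ± 23.6 to 1684 ± 300.2 TPM, and Thbs1, chosen after its values were seen, was the fifth. With TMM factors on TPM, Tgfb2 and Vtn kept the call, and Npnt, another gene picked with its values known, was lower. Tgfb2 lost it without Ly6d-low replicate 1 (limma adjusted p = 0.0762) or replicate 2 (0.0883).

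Among other genes, Tns1 was higher in Ly6d-high cells, at 0.771 ± 0.228 and 4.29 ± 1.06 TPM (1.57 ± 0.24 SE, limma adjusted p = 0.00849), the only call among 23 integrin adaptors (median 0.37). Of 9 other integrins tested, Itgb2 and Itga9 were higher (median 0.29). Itgb8, a partner of Itgav, went from 0.612 ± 0.0450 to 1.79 ± 0.393 TPM, from 43 and 49 reads to 134 and 152. It did not pass with limma (0.78 ± 0.24 SE, adjusted p = 0.0816), but edgeR and DESeq2 on recovered reads called it higher. Itgb2 went from 0.604 ± 0.0660 to 2.55 ± 0.779 TPM, and Itga9, whose product binds tenascin, from 0.192 ± 0.0892 to 1.41 ± 0.161 TPM, from 6 and 15 reads to 80 and 78. The 4 leukocyte markers, Itgb2 among them and of which 2 of 3 tested were higher, summed to 2.36 to 2.89 TPM in Ly6d-low and 7.01 to 7.51 TPM in Ly6d-high cells with none at 0. The macrophage list (2 of 4 tested higher) summed to 53.7 to 55.5 TPM in Ly6d-low and 148 to 162 TPM in Ly6d-high cells, with 1 gene at 0 in 1 Ly6d-low library. The plasma and B cell list (2 of 2 tested higher) summed to 0.284 to 0.299 TPM and 74.5 to 88.3 TPM, with 1 or 2 of its 4 genes at 0 in 3 of the libraries. The part of these cells was not tested. The tetraspanin genes Cd81 and Cd82 were higher and Bsg lower among 13 genes (median 0.32). Ltbp2, a latent TGF-β binding protein gene, was 1 call among 9 (median 0.39), and limma called 0 of 3 hemidesmosome genes (2 at an unadjusted p under 0.05), as did edgeR on recovered reads. Of these, Cd151 went from 12.8 ± 0.419 to 20.9 ± 3.33 TPM (0.66 ± 0.17, limma adjusted p = 0.0588). With TMM factors on TPM the calls of Itgb2, Itga9, Cd81, Cd82, Bsg and Ltbp2 were lost. Those of Cd81, Cd82, Bsg and Ltbp2 were also lost without either Ly6d-low replicate, where Vtn was the only matrix ligand called. The call of Itga9 was lost without either Ly6d-low replicate, and that of Itgb2 without Ly6d-low replicate 2 (limma adjusted p = 0.0666). Without Ly6d-high replicate 1 the median of the 21 matrix ligands was 0.735, against 0.336 over all genes. Without Ly6d-high replicate 2 it was 0.326, against 0.141.

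Over the 8 libraries, the genes nearest to Itgb6 among 6378 candidates, by Euclidean distance between log2 values centred within each table, were Tmem45a at 0.262, Fam110a at 0.301 and Got2 at 0.308. Tmem45a, a transmembrane protein gene, was at 15.8 and 31.5 TPM on average in Ly6d-low and Ly6d-high cells, with a log2 fold change of 0.04 with overexpression. Fam110a was at 19.2 and 41.3 TPM and Got2, a mitochondrial aspartate aminotransferase gene, at 40.0 and 69.5 TPM. Their changes with overexpression were 0.13 and 0.09.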

How the data were processed

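RNA was sequenced from sorted KPC1199 cells. Tools named for the authors' upstream work, per the submitters' processing notes, are HISAT2, featureCounts, fastp and DESeq2 (no versions given), with mm9 as the build. The gene positions in the deposited tables are those of GRCm38 for all 9 members, checked against GENCODE M21. One deposited table holds raw counts per gene for WT and overexpression cells, the other holds TPM for Ly6d-high and Ly6d-low cells, and the gene length column of each, in bases, is of another unit per the file headers. WT, Ly6d-high and Ly6d-low columns carry names of sorted samples, though tissue WT titles hold the same WT strings. The overexpression columns were assigned by group only. In the count table, 2 other library columns had no matching label and were left out. Tissue samples were not analysed here.

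The count test was edgeR 4.0.16 under R 4.3.3 (filterByExpr, TMM, glmQLFit and glmQLFTest). Its SE are log2 fold changes over the root of the F statistic. TPM were tested with limma 3.58.1 (trend) on log2(TPM + 1), keeping genes that reached 1 TPM in 2 or more libraries. Such differences understate the change of low genes. Benjamini-Hochberg adjustment ran over all genes tested, with a threshold of 0.05. TPM times gene length gave whole reads for 100% of 85643 values above 0 (within 0.1 reads), used for edgeR and DESeq2 1.42.0 as alternatives. RPKM were computed from counts, since TPM from counts are moved by a very short gene with many reads in WT replicate 2. Other alternatives were RLE factors, no filter, a pseudocount of 0.1, TMM factors on TPM, a replicate block, leaving out marker and immunoglobulin genes, and leaving out each library. Both tests were tested on simulated data, with the same variability set for every gene and rises and falls equal in number. That setting differs from the Ly6d-high and Ly6d-low libraries, so no result here rests on it. The members and lists were chosen with earlier results of these data known. Named genes are all members, Ly6d, up to 4 genes with the lowest p per adhesion list and comparison (all genes of lists of 3 or fewer), and the 3 genes nearest to each member called, among genes tested in both comparisons with means of at least 10 CPM and 10 TPM, without pseudogenes and numbered gene models.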

Additional observations from a re-analysis of the deposited data

How the results depend on the processing

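Calls over all genes were 656 with overexpression and 1435 between Ly6d-high and Ly6d-low cells. They came to 1187 with no filter on low counts and 531 with no filter on low TPM. Leaving out 1 library gave 565 to 1584 with overexpression and 931 to 6710 between Ly6d-high and Ly6d-low cells. The counts over 1.5 times the reported ones came without overexpression replicate 1 (1584), overexpression replicate 2 (1062) and Ly6d-high replicate 1 (6710), and the count of 931 without Ly6d-low replicate 1. A lone library was assumed to vary like the other group. Members called with overexpression were 0, then 1 with no filter on low counts (Itgb5) and 0 to 2 without 1 library. Between Ly6d-high and Ly6d-low cells they were 1, then 0 with no filter on low TPM, 4 with edgeR and 5 with DESeq2 on recovered reads, and 0 to 5 without 1 library. With TMM factors on TPM 1 member was called, Lamb3 in place of Itgb6. Of all calls between Ly6d-high and Ly6d-low cells 88.1% were higher, against 74.1% with TMM factors on TPM, 67.4% with edgeR and 60.8% with DESeq2 on recovered reads.

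The replicate block on the labels' numbers gave 4179 calls and 4 members (Itgb5, Itgav, Lamb3 and Itgb6). Same-numbered Ly6d-high and Ly6d-low libraries had a correlation of 0.0681 between their deviations. With 2 libraries per group, that value cannot show whether they share an animal or a day. No paired analysis was possible for overexpression because its columns could not be tied to single labelled samples, so their numbers name no pairs.

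The following estimates turned sign, and the cause was not tested. Between Ly6d-high and Ly6d-low cells Itgb1 was -0.15 with TMM factors on TPM, -0.16 with edgeR and -0.17 with DESeq2 on recovered reads, and -0.081 to 0.341 without 1 library. Itga3 ran from -0.360 to 0.103 and Itga6 from -0.298 to 0.0113 without 1 library. With overexpression and without 1 library Lamb3 ran from -0.179 to 0.0598, Itgb6 from -0.301 to 0.411, Plec from -0.0511 to 0.0853, Smad7 from -0.0107 to 0.188, Tmem45a from -0.147 to 0.204 and Got2 from -0.101 to 0.246.

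Without 1 library, the difference in the Itgb6 share of Itgav partners ran from 0.440 to 0.530 percentage points between Ly6d-high and Ly6d-low cells and the Itgb4 share of Itga6 partners from 1.31 to 1.57. With overexpression they ran from -0.061 to 0.0474 and from 0.857 to 1.92. Few counts limit Itgb6 in WT and overexpression cells.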
